A study of Mus musculus with 17 samples.

Results

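Collagens are the main fibrous proteins of the extracellular matrix, and the cells described here, adult mouse neural retinal progenitor cells (mNRPCs), expressed genes of several collagen types at the RNA level. The 44 genes with a symbol of the form Col, type number, a, chain number were taken as the collagen genes, out of 18836 genes listed in at least 1 library. Of the 44 genes, 11 encode fibrillar collagens, 6 encode the network-forming type IV collagens (Col4) and 27 encode other types. In all, 28 were listed in each of the 17 libraries and 16 in fewer.

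The mNRPCs came from the neural retina of C57BL/6 mice and were grown on Matrigel in a basic medium (BM) with N2 and B27. One library each was made from day 0 cells and from cells in BM, in BM with bFGF (B), in BM with CHIR99021 (C) and in BM with both (BC) on days 1, 3, 5 and 7, without replicates. bFGF (FGF2) is a mitogen acting on FGF receptors, and CHIR99021 inhibits the kinase GSK-3. According to the paper, the mNRPCs were isolated and propagated in BM containing both bFGF and CHIR99021. BM, B and C thus lack a part of that medium, while BC has both factors. The paper describes the day 0 cells both as cultured in BM and as cells before treatment, and the label gives them no treatment. Total expected counts ran from 17571973 to 19428744 per library. Matrigel itself contains type IV collagen and laminin as proteins, which the RNA measurements do not detect.

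The label was checked against marker genes, whose levels are given as FPKM (counts scaled by transcript length and library size), a scale on which genes can be compared. Among the retinal progenitor markers, Rax and Six6 stayed below 0.5 FPKM in every library, while Pax6, Six3 and Sox2 were listed in all. All 4 astrocyte markers and 6 of the 7 endothelial markers, Pecam1 and Cdh5 among them, stayed below 0.5 FPKM, and the other endothelial marker, Kdr, reached 1.27. Of 8 pericyte markers 6 stayed below 0.5 FPKM, among them Rgs5, Cspg4 and Des, while Acta2 reached 376 and Pdgfrb 115. Of 9 fibroblast markers, Lum, Thy1 and Meox2 stayed below 0.5 FPKM, while Fbln1 reached 30.5, Dcn 9.61 and Pdgfra 5.27. The fibroblast-associated factors Twist1 and Prrx1 were present in every library, the first between 29.8 and 65.9 FPKM and the second between 30.5 and 105 FPKM.

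Fibrillar collagens assemble into the banded fibrils of connective tissue, with Col3a1 and the chains of types I and V as common components. Type IV collagens form the sheet-like network of basement membranes, and their chains are built in sets: Col4a1 with Col4a2, Col4a3 with Col4a4 and Col4a5, and Col4a5 with Col4a6. The Col4 genes lie in head-to-head pairs, so that the members of a pair are transcribed away from a shared stretch of DNA. In the GENCODE M21 annotation of GRCm38, Col4a1 (chromosome 8, minus strand) and Col4a2 (plus strand) overlap by 22 bases at their starts. The start of Col4a4 (chromosome 1, 82586849, minus strand) lies 71 bases from that of Col4a3 (82586921, plus strand), and the starts of Col4a6 and Col4a5 on chromosome X lie 1308 bases apart.

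The stretches before the starts of the Col4a4/Col4a3 and Col4a6/Col4a5 pairs are shown. In each of these pairs both genes were lower with bFGF from day 3 on, without overlap. The Col4a4 to Col4a3 ratio still changed over the days. The stretches come from the RefSeq promoter table for GRCm38.p6, which held 35 of the 44 genes and 38 windows for them. Bases covered by a GENCODE exon were left out. The capitals mark CCAAT or GGGCGG on either strand (ATTGG and CCGCCC in reverse), and each sequence is read on the strand of the gene named.
Col4a4, the whole interval to Col4a3 (chr1:82586850-82586920, minus strand): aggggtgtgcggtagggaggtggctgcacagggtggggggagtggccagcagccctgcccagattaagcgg
Col4a6 (chrX:141474077-141474326, minus strand): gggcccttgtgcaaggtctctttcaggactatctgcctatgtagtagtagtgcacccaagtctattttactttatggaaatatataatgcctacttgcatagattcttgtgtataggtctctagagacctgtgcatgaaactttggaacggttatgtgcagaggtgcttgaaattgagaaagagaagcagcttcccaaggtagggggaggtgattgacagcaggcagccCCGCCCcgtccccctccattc
Col4a5 (chrX:141475169-141475384, plus strand): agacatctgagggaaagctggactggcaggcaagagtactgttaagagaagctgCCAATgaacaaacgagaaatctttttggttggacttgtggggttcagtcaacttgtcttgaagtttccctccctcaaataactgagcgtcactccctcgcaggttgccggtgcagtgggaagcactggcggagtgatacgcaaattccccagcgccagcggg
The interval between Col4a4 and Col4a3 held neither motif. The stretch of Col4a6 held 1 copy of GGGCGG in reverse and the stretch of Col4a5 held 1 copy of CCAAT. Of 32851 promoter windows, 13.3% held CCAAT and 20.7% held GGGCGG in the last 71 bases before the start, 32.7% held GGGCGG in the last 250 bases, and 30.5% held CCAAT in the first 216 bases of the window.

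Collagen RNA was a small part of the transcriptome, with its largest sums on day 7 without bFGF. The summed FPKM of the 44 genes was 528 on day 0, which was 0.107% of all FPKM. In BM it went from 799 on day 1 to 1647 on day 7 (0.406% of all FPKM), and in C from 687 to 1431. With bFGF the day 7 sums were 712 (B) and 723 (BC), after peaks of 982 and 1085 on day 5. A few genes carried most of this signal. The 6 highest genes of a library held between 67.0% and 85.9% of its collagen FPKM.

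The mix of types shifted with bFGF. On day 7 the fibrillar genes held 38.6% (BM) and 41.0% (C) of collagen FPKM, compared with 20.8% (B) and 21.5% (BC). Col4 genes held 41.8% (BM) and 39.2% (C), compared with 36.3% (B) and 34.5% (BC). The other types held 19.6% in BM and 19.8% in C, and 42.9% in B and 44.0% in BC, mostly as Col18a1, which alone made up 27.7% in B and 27.0% in BC. The ratio of the summed FPKM on day 7, B over BM, was 0.233 for fibrillar, 0.376 for Col4 and 0.945 for other types. Dividing FPKM by each library's TMM factor turned the last value to 1.34 and raised the ratios of fibrillar and Col4 genes in the same proportion. These sums have no replicate and no test, and in bulk RNA a change in the number of cells of a kind and a change in RNA per cell cannot be told apart.

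**Figure D1:**
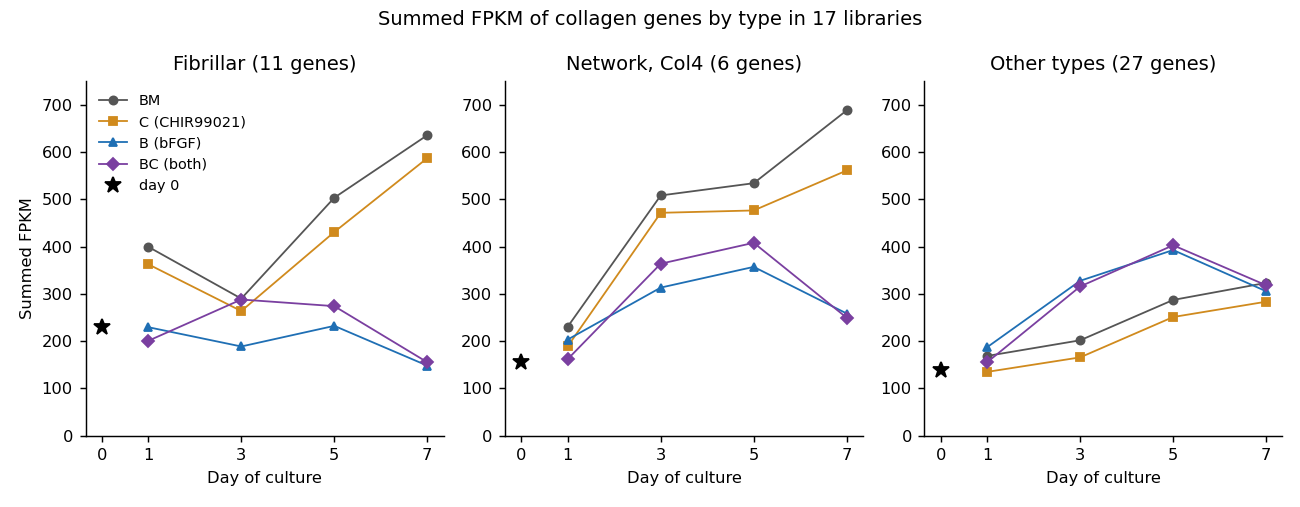
Summed FPKM of the fibrillar, Col4 and other collagen genes (y axis) against the day of culture (x axis), 1 point per library, with lines joining the libraries of one treatment and a star for day 0. Without bFGF (BM and C) the fibrillar and Col4 sums reach 561 to 688 on day 7, and with bFGF (B and BC) they lie between 148 and 259.

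The bFGF effect was tested with edgeR's quasi-likelihood test over the 11272 genes whose FPKM averaged 1 or more in the 16 cultured libraries, of which 22 were collagen genes. One fit averaged bFGF over days 1 to 7, with CHIR99021 and day as terms, and another gave bFGF a term for each day. Both take departures from these models as the spread, because no condition was sequenced more than once, so that an adjusted p does not cover the spread between cultures. A fold change is called at a Benjamini-Hochberg adjusted p under 0.05, and its error is the standard error taken from the F statistic. Of the 22 genes, 7 averaged 1 FPKM or more only in the libraries without bFGF (Col1a1, Col4a3, Col4a4, Col9a3, Col12a1, Col23a1 and Col27a1), so their passing the filter already depended on that state, and counts over the 22 genes are given as a description. For these 7 genes, p-values and fold changes of bFGF and of time come from the same fits with no filter on low values (18700 genes), and counts over the 15 genes that averaged 1 FPKM in both states, a choice made after the levels were seen, stand beside those over the 22.

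With bFGF, averaged over days 1 to 7, 15 of the 22 collagen genes were lower and 2 were higher, while 33.9% of all genes tested were lower and 34.6% were higher. Of the 15 collagen genes at 1 FPKM in both states, 9 were lower and 2 were higher, against 32.2% and 35.2% of the 10761 genes that met the same condition. With no filter on low values, 19 of all 44 collagen genes were lower and 4 higher, against 23.8% and 22.6% of all genes. The median log2 fold change of the 15 genes was -0.50, compared with 0.02 for the 10761 genes, and that of the 22 genes was -0.81. By type, 3 of 5 fibrillar genes at 1 FPKM in both states, 3 of 4 Col4 genes and 3 of 6 genes of other types were lower, with medians of -0.98, -0.49 and -0.22. Both genes that were higher, Col18a1 and Col8a1, were of other types. Collagen transcripts are long (median 6447 bases in those tested, 2818 in all genes). The 5862 genes within the same length range, 2707 to 11633 bases, had a median of -0.10, and of -0.25 on day 7. That range starts below the median length of all genes, so these genes were not matched to the collagen genes. The part of length in the collagen results was not tested. Scaling by library totals instead of TMM shifted the median of all genes by -0.29 and the calls to 2245 genes higher and 5702 lower, with 2 collagen genes higher and 18 lower.

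The number of collagen genes called grew with the day, and so did the share of all genes called. On day 5, 73.3% of the 15 genes at 1 FPKM in both states were called, against 75.1% of the 10761 genes. Of the 22 genes on day 1, 6 were lower and 1 was higher with bFGF, where 4.46% of all genes were lower and 6.21% higher. On day 3 the counts were 11 lower and 3 higher (25.0% and 25.4% of all genes), and on day 5 they were 14 lower and 4 higher (38.6% and 37.2%). On day 7, 17 were lower and 3 higher, against 39.6% and 38.8% of all genes. Among the 15 genes at 1 FPKM in both states, 4 were lower and 1 higher on day 1, 6 and 3 on day 3, 7 and 4 on day 5, and 10 and 3 on day 7. The shares of the 10761 genes were 4.32% and 6.26%, 24.0% and 25.7%, 37.1% and 38.0%, and 38.2% and 39.6%. The effect differed between days in 19 of the 22 genes and in 12 of the 15 by an F test within the by-day fit, and in 76.3% of all genes in either set. Single libraries decided part of these counts. Without the BC library of day 1, 1 gene was lower on that day, without the B library of day 1 none was higher, and without the B library of day 3 the number lower on day 1 was 11. For day 3, leaving out the B library of that day reduced the 11 genes lower to 7.

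Only Col12a1 among the genes tested lay lower in all 8 libraries with bFGF than in all 8 without, and none lay higher in all 8, against 4.44% and 1.39% of all genes. Over days 3 to 7, a window chosen after the values were seen, 12 of the 22 genes lay wholly below and 2 (Col18a1 and Col8a1) wholly above, against 29.7% and 11.9% of all genes. Of the 15 genes at 1 FPKM in both states, 6 lay wholly below and 2 wholly above, against 28.7% and 11.8%.

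**Figure D2:**
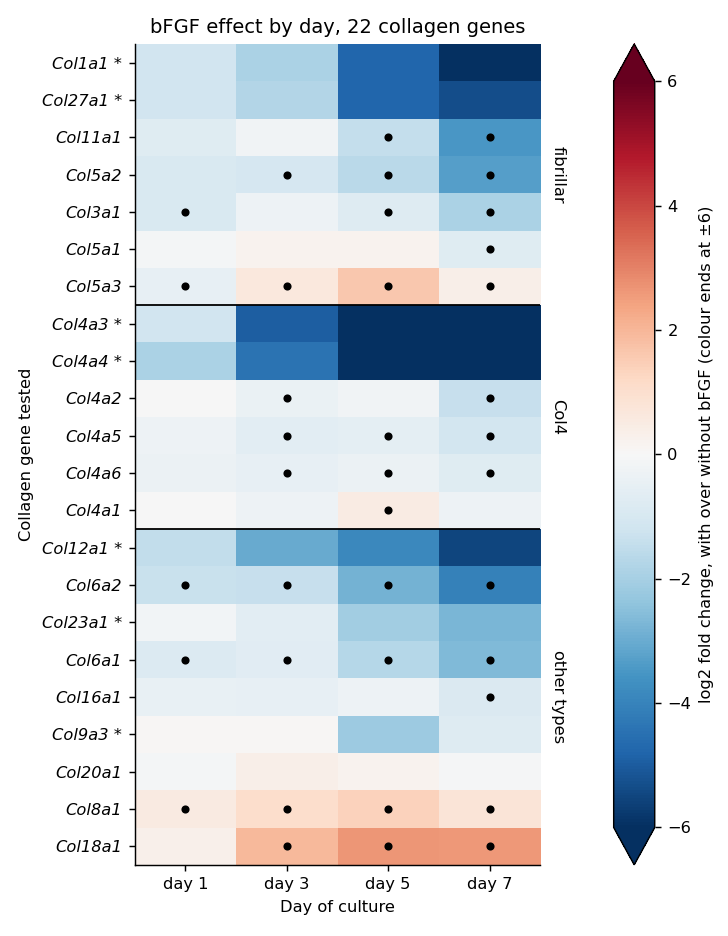
Log2 fold change with bFGF (colour, ending at ±6) on each day (x axis) for the 22 collagen genes tested (y axis), grouped by type. Black dots mark an adjusted p under 0.05 in edgeR in the 15 genes at 1 FPKM in both states, an asterisk marks the 7 others, which carry no dots, and blue shows lower and red higher with bFGF; Col4a3, Col4a4 and Col1a1 run past the end of the colour scale on day 7.

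Col4a3 and Col4a4 had the most negative log2 fold changes with bFGF among the collagen genes tested. Both rose without bFGF and stayed at or below 0.33 FPKM with it. Col4a3 was at 0.02 FPKM on day 0. In BM it was at 0.07, 1.45, 3.53 and 12.3 FPKM on days 1, 3, 5 and 7, and in C at 0.08, 1.65, 6.48 and 15.5. In B it was at 0.02, 0.01 and 0.01 FPKM on days 1, 3 and 5, in BC at 0.04, 0.08 and 0.01, and on day 7 it was not listed in either. The libraries without bFGF thus left those with it behind from day 3 on. The log2 fold change over days 1 to 7 was -6.71 ± 0.84 (adjusted p = 6.77e-05). On day 7, BM held 1957 and C 2504 expected counts, and set against a floor of 3 counts in each library with bFGF, the level was at least 728-fold lower with bFGF, by library totals. Fitted changes of Col4a3 on day 7 depend on the small count edgeR adds and are not given as sizes.

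Col4a4, the neighbour of Col4a3, was also lower with bFGF from day 3 on without overlap. It was at 0.12 FPKM on day 0, at 0.39, 4.95, 7.46 and 16.8 in BM and at 0.29, 6.07, 14.1 and 23.4 in C on the 4 days. B had 0.07, 0.09, 0.03 and 0.03 FPKM and BC had 0.1, 0.33, 0.07 and 0.03. The ratio of Col4a4 to Col4a3 FPKM was between 1.37 and 5.57 in the 8 libraries without bFGF. From day 1 to day 7 this ratio went from 5.57 to 1.37 in BM and from 3.62 to 1.51 in C. It was 2.5 to 9.0 in the 6 libraries with bFGF where Col4a3 was listed, some of these at a few hundredths of an FPKM. The log2 fold change of Col4a4 over days 1 to 7 was -5.48 ± 0.69 (adjusted p = 7.28e-05), and on day 1 it was -1.90 ± 0.40 (adjusted p = 0.00853), although limma on log2(FPKM + 1) did not call it on day 1 (log2 fold change -0.30, adjusted p = 0.341).

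The other Col4 genes were expressed with and without bFGF. Col4a1, the most abundant of them, was at 71.1 FPKM on day 0, at 94.1, 228, 251 and 347 in BM and at 70.4, 193, 200.0 and 255 in C. In B it was at 87.0, 149, 208 and 165 FPKM and in BC at 65.9, 168, 251 and 167. On days 1 and 5 the groups overlapped, and on days 3 and 7 both libraries with bFGF were lower. Over days 1 to 7 its log2 fold change was -0.04 ± 0.14 (adjusted p = 0.827). On day 5 Col4a1 was called higher, by 0.49 ± 0.17 (adjusted p = 0.0192), but without TMM the change was 0.05 (adjusted p = 0.805). On day 7 the TMM value was -0.30 ± 0.17 (adjusted p = 0.125), while without TMM it was called lower at -0.84.

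Col4a2 shares its chain set with Col4a1 and had the more negative log2 fold change with bFGF. It was at 51.7 FPKM on day 0, at 61.3, 124, 135 and 193 in BM and at 50.8, 111, 118 and 152 in C. B libraries had 57.9, 80.7, 79.6 and 50.3 FPKM and BC libraries 47.1, 85.3, 80.4 and 40.9. From day 3 each library with bFGF lay below each library without it. On day 7 its log2 fold change was -1.38 ± 0.11 (adjusted p = 1.78e-07). The FPKM ratio of Col4a1 to Col4a2 was between 1.39 and 1.86 in the 8 libraries without bFGF. With bFGF it was 1.5 in B and 1.4 in BC on day 1, and 3.28 (B) and 4.08 (BC) on day 7. The reads of both genes at their overlapping starts cannot be told apart where strand was not kept, which concerns 22 bases.

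Col4a5 and Col4a6 moved as a pair, and on day 7 they were lower with bFGF by less than Col4a2. Col4a5 was at 19.0 FPKM on day 0, at 43.7, 89.7, 75.7 and 68.8 in BM and 38.9, 88.2, 74.3 and 63.6 in C, and at 34.8, 47.7, 36.0 and 22.1 in B and 27.7, 60.3, 38.1 and 20.6 in BC. Col4a6 was at 15.0 FPKM on day 0, at 31.1, 59.5, 61.9 and 50.4 in BM and 28.8, 71.4, 63.0 and 51.3 in C, and at 23.8, 36.2, 33.0 and 20.9 in B and 21.2, 49.8, 38.5 and 21.2 in BC. Both genes peaked on day 3 or 5 in each of the 4 treatments and were lower with bFGF from day 3 on without overlap. Their log2 fold changes over days 1 to 7 were -0.65 ± 0.11 (Col4a5, adjusted p = 0.000407) and -0.49 ± 0.09 (Col4a6, adjusted p = 0.000653). The change over the same days was -0.49 ± 0.16 for Col4a2 (adjusted p = 0.0171), and on day 7 it was -1.10 ± 0.12 for Col4a5 and -0.73 ± 0.13 for Col4a6. The Col4a5 to Col4a6 FPKM ratio stayed between 0.974 and 1.51 in the 16 cultured libraries.

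**Figure D3:**
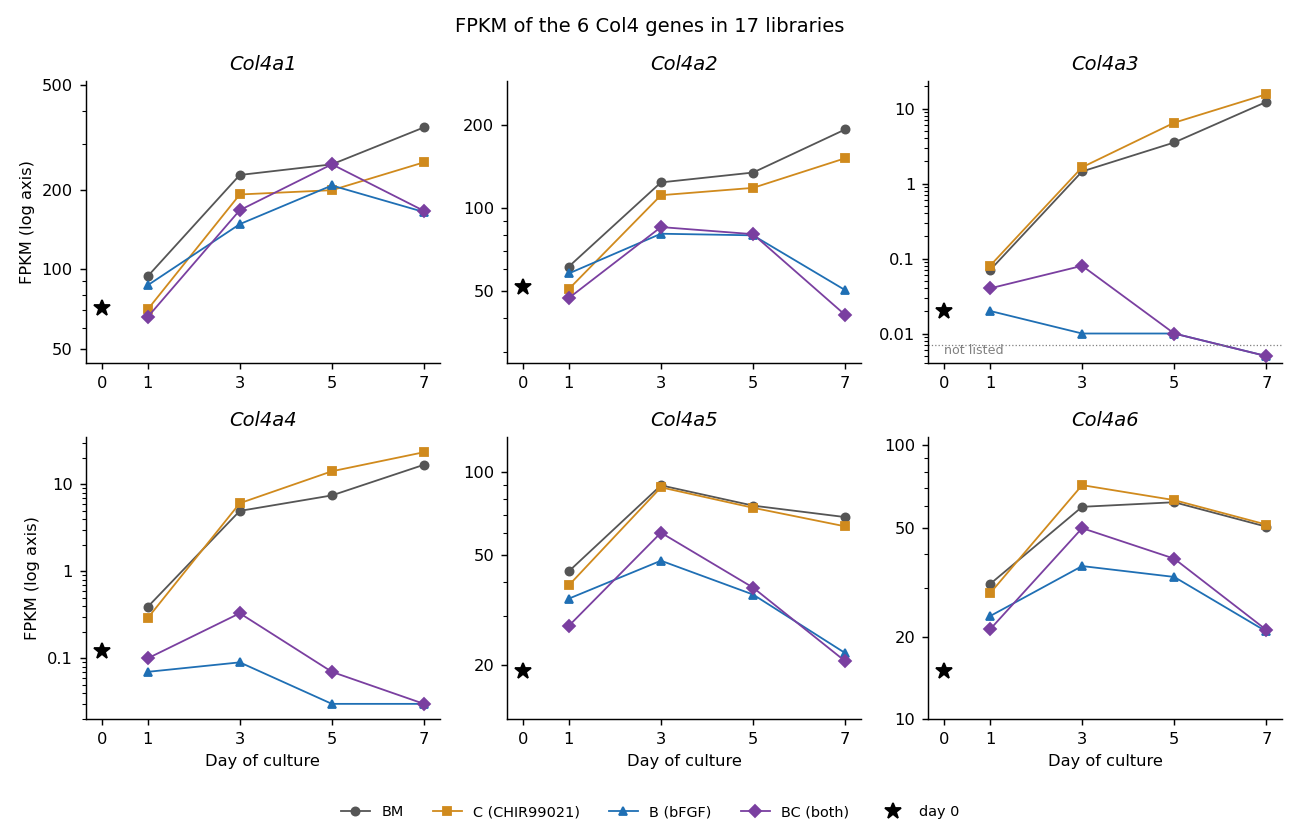
FPKM of the 6 Col4 genes (y axis, log scale, with its own range in each panel) against the day of culture (x axis), 1 point per library, with a star for day 0. Col4a3 and Col4a4 reach 12.3 to 23.4 FPKM on day 7 without bFGF and lie at 0.03 FPKM or below with bFGF, where points under the dotted line were not listed, while the other 4 genes stay above 20 FPKM on that day.

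**Figure D4:**
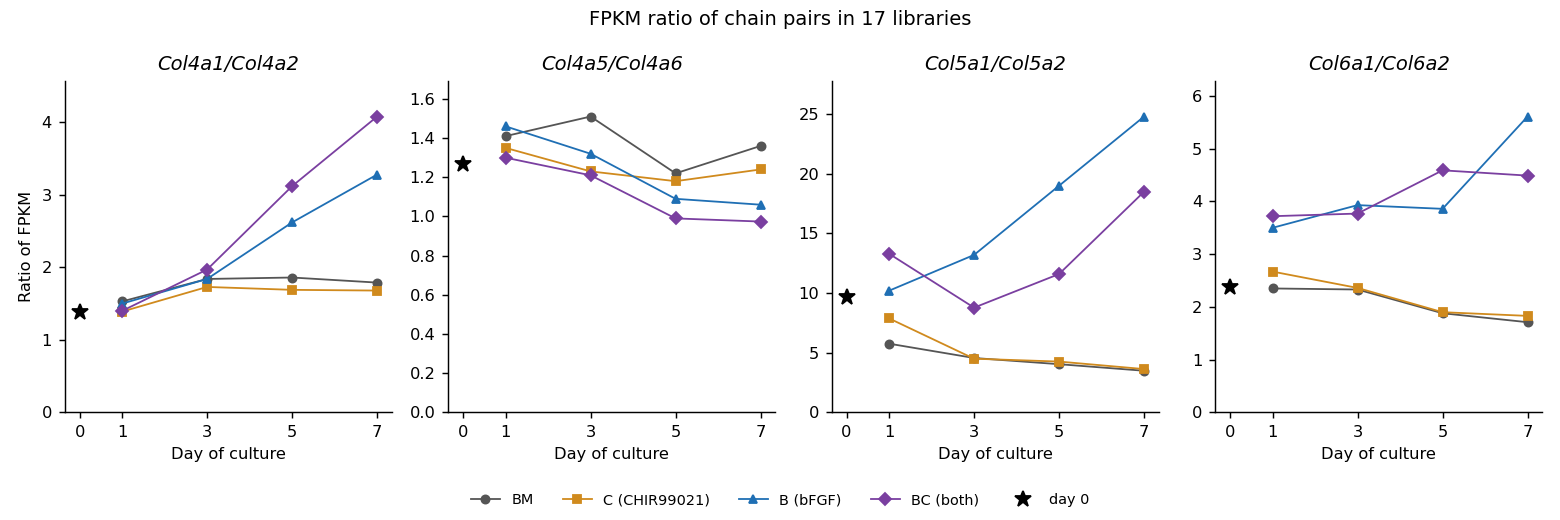
FPKM ratio of 4 pairs of chains (y axis, from 0) against the day of culture (x axis), 1 point per library and a star for day 0. The Col4a1 to Col4a2 ratio climbs to 3.28 (B) and 4.08 (BC) on day 7 and stays below 1.9 without bFGF, and the Col4a5 to Col4a6 ratio lies between 0.974 and 1.51 in the cultured libraries.

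Among the fibrillar genes, Col3a1 had the highest mean FPKM of all collagen genes. It encodes the only chain of type III collagen, common in soft tissue. Col3a1 was at 171 FPKM on day 0, at 303, 144, 318 and 368 in BM and at 272, 132, 246 and 317 in C, with a dip on day 3. B had 153, 76.5, 102 and 60.3 FPKM and BC had 134, 131, 139.8 and 66.6. The libraries with bFGF were lower than those without on the same day in 8 of 8 pairs. Its log2 fold change was -0.98 ± 0.20 over days 1 to 7 (adjusted p = 0.00138), -0.92 ± 0.22 on day 1 (adjusted p = 0.0222), -0.33 ± 0.22 and not called on day 3 (adjusted p = 0.234), -0.78 ± 0.22 on day 5 (adjusted p = 0.00632) and -1.89 ± 0.23 on day 7 (adjusted p = 7.59e-06).

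The type V chains, minor fibril components that help to set fibril size, did not move alike. Col5a1 was at 34.9 FPKM on day 0, at 59.0, 89.9, 98.9 and 115 in BM and 55.8, 86.1, 96.9 and 108 in C, and at 53.0, 82.3, 81.6 and 46.9 in B and 47.0, 108, 82.0 and 46.7 in BC. Its levels with and without bFGF overlapped on day 3, and the effect was called on day 7 only, at -0.71 ± 0.11 on the log2 scale (adjusted p = 0.000102). Over days 1 to 7 the change was -0.11 ± 0.13 (adjusted p = 0.478). Col5a2 ranged from 7.08 to 33.0 FPKM without bFGF and from 1.89 to 12.3 with it. On day 7 it was lower with bFGF by 3.29 on the log2 scale (SE 0.33, adjusted p = 1.68e-06). The ratio of Col5a1 to Col5a2 FPKM was 3.49 to 7.88 without bFGF and 8.78 to 24.8 with bFGF.

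Col5a3 changed direction. It was at 18.5 FPKM on day 0, at 17.4, 12.6, 17.5 and 47.0 in BM and 18.7, 9.91, 14.5 and 38.4 in C, and at 13.6, 15.3, 37.8 and 36.9 in B and 11.0, 17.3, 33.8 and 36.2 in BC. With bFGF it was lower on day 1 (-0.47 ± 0.13, adjusted p = 0.0378) and higher on day 3 (0.65 ± 0.13, adjusted p = 0.00131) and day 5 (1.61 ± 0.13, adjusted p = 3.21e-07). On day 7 the value was 0.33 ± 0.13 (adjusted p = 0.0307) with TMM and turned to -0.21 by library totals. The rise came 1 sampling day earlier with bFGF, on day 5 rather than day 7. Its effect over days 1 to 7 missed the threshold (0.53 ± 0.22, adjusted p = 0.0503).

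Col1a1 encodes a chain of type I collagen, the main collagen of tendon, skin and bone. It was at 0.11 FPKM on day 0, at 0.62, 3.33, 8.28 and 25.9 in BM and 0.85, 4.41, 19.5 and 45.2 in C, and at 0.33, 0.56, 0.3 and 0.14 in B and 0.29, 1.53, 0.43 and 0.25 in BC. The highest library with bFGF, BC on day 3, lay below every library without bFGF from day 3 on. The log2 fold change was -3.59 ± 0.69 over days 1 to 7 (adjusted p = 0.000896) and -6.96 ± 0.28 on day 7 (adjusted p = 2.5e-12). Its partner in type I collagen, Col1a2, named here after its values were seen, stayed at or below 1.78 FPKM in all libraries. The FPKM ratio of Col1a1 to Col1a2 was 3.88 to 28.8 without bFGF. In the 7 libraries with bFGF where Col1a2 was listed, at or below 0.06 FPKM, the ratio was 6.25 to 43.0. Col1a2 had a mean FPKM below 1 and was not tested; with no filter on low values it was lower with bFGF over days 1 to 7 (log2 fold change -3.86, adjusted p = 0.000118).

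Col27a1, a fibrillar collagen gene of cartilage, was at 0.09 FPKM on day 0, at 0.24, 1.07, 4.35 and 10.2 in BM and 0.21, 0.82, 3.98 and 6.77 in C, and at 0.14, 0.09, 0.12 and 0.19 in B and 0.08, 0.36, 0.1 and 0.12 in BC. It rose without bFGF and stayed at or below 0.36 FPKM with it. Its change over days 1 to 7 was -3.37 ± 0.57 (adjusted p = 0.000431). Col11a1, the other fibrillar gene tested, ranged from 7.28 to 39.8 FPKM without bFGF and from 1.64 to 17.3 with it, and was lower over days 1 to 7 (log2 fold change -1.42 ± 0.42, adjusted p = 0.00915). The remaining fibrillar genes, Col2a1, Col11a2 and Col24a1, stayed at or below 0.59 FPKM.

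Col18a1 ran against the fibrillar and Col4 genes that were lower with bFGF. It encodes the core protein of a basement membrane heparan sulfate proteoglycan, whose end fragment is endostatin. Col18a1 was at 78.9 FPKM on day 0, at 90.2, 63.8, 79.1 and 70.4 in BM and 73.7, 35.1, 28.7 and 31.5 in C. With bFGF it was at 101, 177, 239 and 197 FPKM in B and 87.1, 165, 226 and 195 in BC. From day 3 every library with bFGF was above every library without it. The log2 fold change was 0.29 ± 0.31 on day 1 (adjusted p = 0.591), 1.95 ± 0.32 on day 3 (adjusted p = 0.000331) and 2.59 ± 0.33 on day 7 (adjusted p = 1.16e-05). Over days 1 to 7 it was 1.90 ± 0.33 (adjusted p = 0.00054).

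Col8a1 encodes a short-chain collagen that forms networks, among them one in the corneal endothelium's basement membrane. It was at 46.0 FPKM on day 0, at 48.9, 48.0, 58.2 and 68.5 in BM and 36.4, 49.1, 53.2 and 59.2 in C, and at 66.8, 109, 106 and 76.4 in B and 51.0, 82.9, 105 and 71.2 in BC. Each of the 8 same-day pairs was higher with bFGF. The log2 fold change over days 1 to 7 was 0.93 ± 0.12 (adjusted p = 9.32e-05), and on day 7 it was 0.76 ± 0.13 (adjusted p = 0.000139), which dropped to 0.22 and was not called by library totals (adjusted p = 0.109).

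Col12a1 and Col16a1 are fibril-associated collagens, which bind to the surface of fibrils or to other matrix. Col12a1 was at 1.67 FPKM on day 0, at 3.29, 5.97, 11.0 and 20.0 in BM and 2.53, 5.21, 12.2 and 19.1 in C, and at 1.20, 0.47, 0.63 and 0.33 in B and 0.76, 0.82, 0.53 and 0.27 in BC. It was lower on day 1 (-1.49 ± 0.20, adjusted p = 0.00018) and lower by more on day 7 (-5.48 ± 0.23, adjusted p = 3.56e-12). Col16a1 was at 8.11 FPKM on day 0, at 15.4, 52.8, 74.0 and 71.1 in BM and 13.1, 44.1, 69.9 and 60.9 in C, and at 10.4, 23.2, 31.3 and 19.4 in B and 9.84, 43.2, 54.7 and 39.5 in BC. In each of the 8 pairs it was lower with bFGF, and the log2 fold change over days 1 to 7 was -0.53 ± 0.17 (adjusted p = 0.0124).

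**Figure D5:**
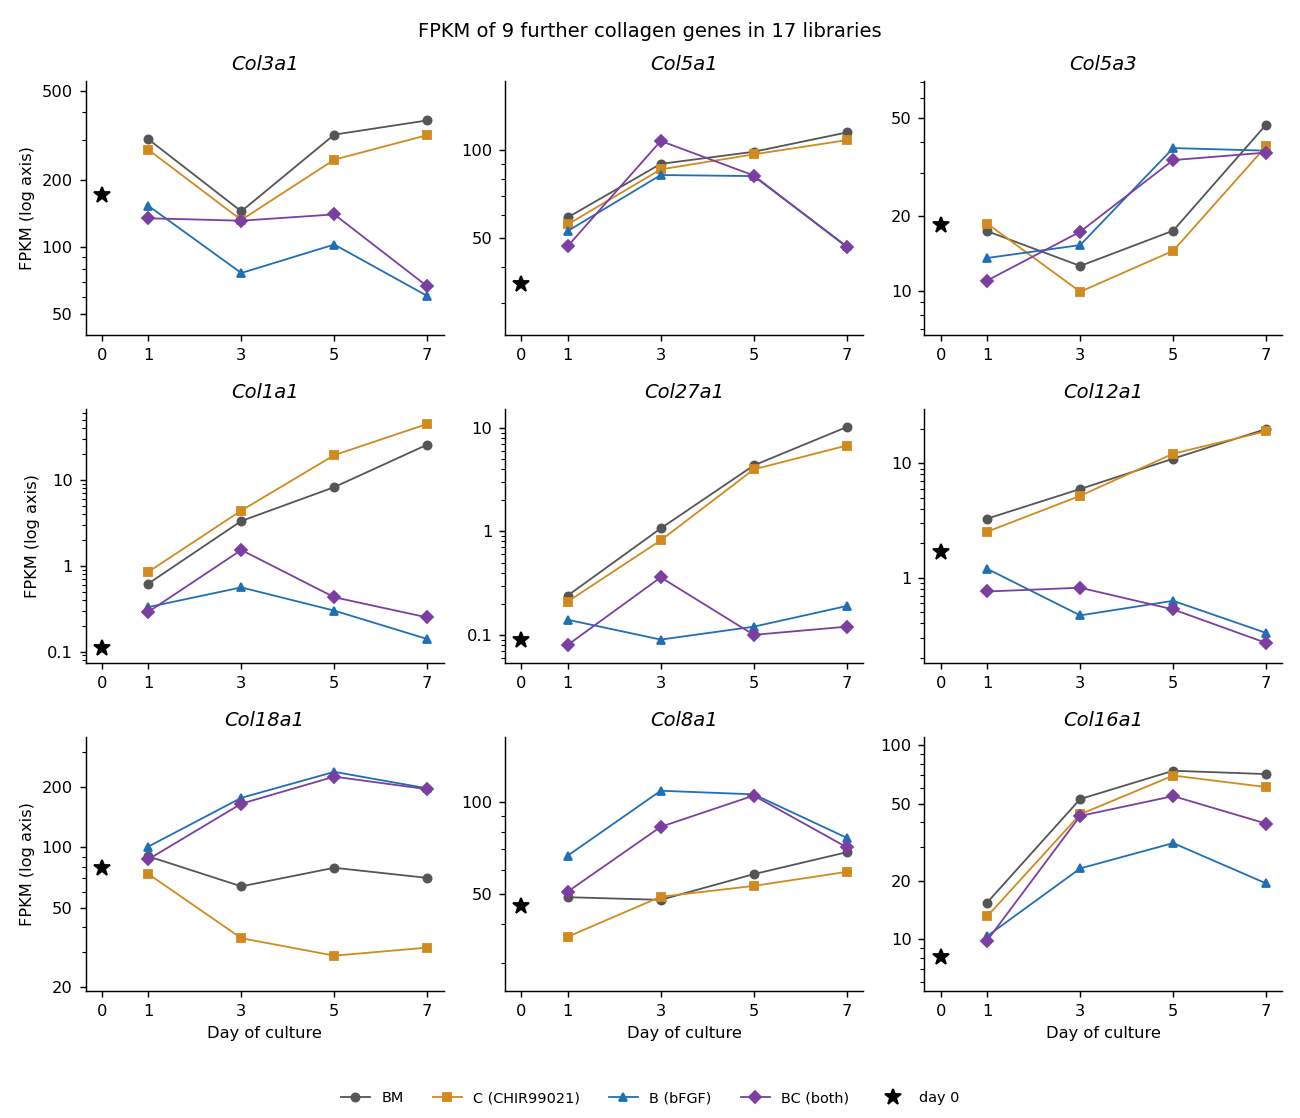
FPKM of 9 further collagen genes (y axis, log scale, with its own range in each panel) against the day of culture (x axis), 1 point per library, with a star for day 0. Col18a1 and Col8a1 lie higher with bFGF from day 3 on, Col12a1 lies lower with bFGF on every day, and the lines of Col5a3 cross.

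Col6a1 and Col6a2 encode chains of the beaded filaments of type VI collagen, which are assembled with another chain such as that of Col6a3. Col6a1 ranged from 3.45 to 63.3 FPKM without bFGF and from 1.71 to 10.2 with it, and Col6a2 from 1.29 to 34.6 and from 0.46 to 2.69. Col6a3 stayed at or below 0.46 FPKM and Col6a4, Col6a5 and Col6a6 at or below 0.17. Both genes tested were lower with bFGF over days 1 to 7, Col6a1 with a log2 fold change of -1.49 ± 0.25 (adjusted p = 0.000439) and Col6a2 with one of -2.44 ± 0.36 (adjusted p = 0.000218). With no filter on low values Col6a3 was higher (log2 fold change 1.38, adjusted p = 0.000414). Of type IX collagen, Col9a3 was listed between 0.22 and 2.22 FPKM, while Col9a1 and Col9a2 stayed at or below 0.03. Col9a3 missed the threshold over days 1 to 7 (-0.63 ± 0.28, adjusted p = 0.0798) and was lower on day 5 (-2.17 ± 0.29, adjusted p = 4.11e-06) and day 7 (-0.76 ± 0.27, adjusted p = 0.0227). Col20a1, between 1.33 and 4.40 FPKM in culture, was called on none of the 4 days, and Col23a1, a transmembrane collagen, was lower over days 1 to 7 (-1.51 ± 0.34, adjusted p = 0.00241).

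Of the 22 genes not tested, 17 stayed below 1 FPKM in every library and 5 (Col1a2, Col7a1, Col14a1, Col22a1 and Col26a1) reached it in at least 1. The fibril-associated gene Col14a1 was at 3.52 FPKM in BM and 2.25 in C on day 7 and was not listed in B or BC. On counts, 412 in BM and 267 in C, it was at least 111-fold lower with bFGF against a floor of 3 counts per library. Among the untested genes, 14 lay below 0.15 FPKM in every library.

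The change from day 1 to day 7 was compared within each bFGF state. Without bFGF, 19 of the 22 genes were higher on day 7 than on day 1 and 1 was lower, against 32.3% and 31.5% of all genes, and of the 15 genes at 1 FPKM in both states 13 were higher and 1 was lower, against 31.1% and 32.5%. The largest rises were those of Col4a3 (7.45 ± 0.26, adjusted p = 2.42e-12), Col4a4 (5.53 ± 0.26, adjusted p = 4.17e-11) and Col1a1 (5.45 ± 0.23, adjusted p = 1.69e-11). Col18a1 was the gene that fell (-0.78 ± 0.31, adjusted p = 0.0428), a call that DESeq2 did not make (adjusted p = 0.0636). The call was lost without the C library of day 7 (log2 fold change -0.48, adjusted p = 0.289), and also without the BM or the C library of day 1. With bFGF, 11 genes were higher and 3 lower on day 7, against 35.8% and 39.5% of all genes (10 and 1 of the 15, against 36.2% and 39.9%), and scaling by library totals, which moved the median of all genes by -0.48, gave 8 higher and 7 lower. The 8 rises with bFGF that were called under both scalings were those of Col4a1, Col5a3, Col6a1, Col6a2, Col8a1, Col16a1, Col18a1 and Col23a1, among them Col6a1 (2.03 ± 0.21, adjusted p = 2.41e-06), Col5a3 (2.02 ± 0.13, adjusted p = 6.58e-08), Col16a1 (1.80 ± 0.32, adjusted p = 0.000277), Col4a1 (1.57 ± 0.17, adjusted p = 4.33e-06) and Col18a1 (1.53 ± 0.31, adjusted p = 0.000735).

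Against day 0, with no test because day 0 is 1 library, 18 of 22 genes that averaged 1 FPKM or more were at least 2 times higher on the log2(FPKM + 1) scale in BM on day 7 and none was lower by as much, against 21.1% and 13.0% of all genes. In C, 18 were higher and 1 was lower, against 21.5% and 13.9%. In B and in BC, 4 were higher and 2 were lower. The corresponding shares of all genes were 11.9% and 23.2% in B, and 12.1% and 25.6% in BC. Of these 22 genes, 7 averaged 1 FPKM in culture only without bFGF, so the difference between 18 and 4 genes depended in part on the filter. Counts over the other 15 genes are not given for day 0. The pseudocount of 1 understates the change of genes at low FPKM.

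The CHIR99021 effect depended on the model. In the additive fit, the count was 0 of 22 by edgeR and 0 by DESeq2, with 0 genes at an unadjusted p under 0.05 in either, and edgeR called 0.337% of all genes. The standard errors of the log2 fold changes reached 0.69. The fit with a bFGF term for each day, in which the CHIR99021 term was read after the levels were seen, left less spread and called 7 of the 22 genes (4 higher and 3 lower), against 19.5% of all genes. Another by-day fit, with an interaction of bFGF and CHIR99021 and also chosen after the levels were seen, gave CHIR99021 an effect in each state. Without bFGF, 5 of the 22 genes were called, against 7.3% of all genes. Col18a1 was lower with CHIR99021 (-0.93 ± 0.14, adjusted p = 0.00237), with 31.5 FPKM in C and 70.4 in BM on day 7, and it was lower in 4 of 4 days. Col4a1 was lower with a log2 fold change of -0.35 ± 0.09 (adjusted p = 0.0418). Higher were Col1a1 (0.80 ± 0.15, adjusted p = 0.00838), Col23a1 (0.96 ± 0.16, adjusted p = 0.00508) and Col4a3 (0.49 ± 0.12, adjusted p = 0.0373). With bFGF, 3 of the 22 genes were called, against 16.9% of all genes, and all were higher: Col11a1 (0.78 ± 0.19, adjusted p = 0.0185), Col16a1 (0.67 ± 0.14, adjusted p = 0.0104) and Col4a4 (1.30 ± 0.40, adjusted p = 0.0456). Col4a4 passed the filter only through the libraries without bFGF and lay at 0.03 to 0.33 FPKM with bFGF. Its expected counts were 14.0 in B and 56.2 in BC on day 3, and 5.27 and 5.19 on day 7. Col18a1 was not called for CHIR99021 with bFGF, but its FPKM was lower in BC than in B in 4 of 4 days. The difference between the states was itself called for none of the 22 genes, with an adjusted p of 0.0776 for Col18a1.

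Enzymes and partners of collagen were described from 6 lists, over days 1 to 7 with bFGF. For these lists, rose and fell mean higher and lower with bFGF than without it on the same days. Of all genes tested, 34.6% were higher and 33.9% lower with TMM, and 19.9% and 50.6% by library totals. Of the 15 genes of chain hydroxylation and glycosylation, 12 were tested, and 7 rose and 2 fell, or 6 rose and 3 fell by library totals. P4hb, the shared subunit of the prolyl 4-hydroxylases, rose by 0.81 ± 0.20 on the log2 scale (adjusted p = 0.00323) and Ppib, a prolyl isomerase, by 0.45 ± 0.10 (adjusted p = 0.00227). The largest rise was that of P4ha1, a catalytic subunit of the same enzyme, with 1.89 ± 0.34 (adjusted p = 0.000645), from 56.4 FPKM in BM to 279 in B on day 7, and the largest fall that of Plod1, a lysyl hydroxylase (-0.48 ± 0.09, adjusted p = 0.000909).

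Of 9 genes of procollagen folding and export, 3 rose and 1 fell with TMM, while by library totals 0 rose and 4 fell. Serpinh1, the collagen chaperone, did not pass the test (0.19 ± 0.11, adjusted p = 0.145), nor did Sparc (0.24 ± 0.13, adjusted p = 0.122). Sec24d, a coat protein of export vesicles, rose most (0.64 ± 0.17, adjusted p = 0.00455; 0.35 and not called by library totals) and Fkbp14 fell (-0.96 ± 0.22, adjusted p = 0.00253). Of 8 genes of propeptide processing, 4 were tested. Pcolce2 rose (3.00 ± 0.41, adjusted p = 0.000152) and so did Adamts14, and Bmp1, the C-propeptide protease, fell (-1.02 ± 0.17, adjusted p = 0.000443). Pcolce did not pass the test (0.06 ± 0.14, adjusted p = 0.717).

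Of 7 crosslinking genes, 6 were tested, with 1 higher and 3 lower. Loxl3, a lysyl oxidase, rose (2.32 ± 0.28, adjusted p = 7.49e-05). The transglutaminase gene Tgm2 fell most (-2.23 ± 0.15, adjusted p = 2.39e-06), and Pxdn, the peroxidase that crosslinks type IV collagen, fell by 1.04 (SE 0.16, adjusted p = 0.000266). Among 10 collagen receptor genes, 5 were tested. Itgb1, an integrin chain, rose by 0.26 ± 0.10 with TMM (adjusted p = 0.0353) and was at -0.03 by library totals, and Ddr1, a collagen-binding kinase, fell by 1.88 (SE 0.21, adjusted p = 5.1e-05). Of 11 fibril-binding genes, 7 were tested, with 1 higher (Tnxb) and 5 lower. Tnxb averaged 1 FPKM only with bFGF, and Fmod and Dcn only without, so they are given by their levels. On day 7 Tnxb was at 1.25 FPKM in BM and 1.98 in B, and Dcn at 8.39 and 0.64. Fmod was at 9.60 FPKM in BM on day 7 and was listed in 1 of the 8 libraries with bFGF, at 0.04 FPKM. Prelp (-1.46 ± 0.19, adjusted p = 0.000105) and Thbs1 (-0.85 ± 0.16, adjusted p = 0.000789) were the most abundant of this list and fell too.

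Genes of other cell types moved with bFGF alongside these results. The summed FPKM of 8 pericyte genes was 35.8 to 479.8 in the libraries without bFGF and 9.1 to 41.0 in those with it, nearly all as Acta2 (365 FPKM in BM and 3.60 in B on day 7) and Pdgfrb (115 and 5.25), while the other 6 stayed below 0.5 FPKM. The sum of 7 lens genes was 0.26 to 83.3 without bFGF and 0.13 to 0.36 with it, and was highest in C on day 7. The 9 retinal progenitor genes summed to between 149.5 and 404 without bFGF and between 96.1 and 207 with it. The sum of 9 fibroblast genes was 79.6 to 111 without bFGF and 113 to 175 with it, mostly as Prrx1, Twist1 and Fbln1. Within that list Fbln1, Prrx1, Twist1 and Twist2 were higher with bFGF with TMM and Pdgfra was lower (-0.42 ± 0.15, adjusted p = 0.0218), and Dcn, also in the fibril-binding list, had the lower levels with bFGF given above. Sums of the endothelial and astrocyte lists reached at most 1.34 and 0.42 FPKM, those of the pigment epithelium, microglia and photoreceptor lists at most 2.61, and the Mueller glia list was almost all Vim. The part of these genes in the collagen results was not tested.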

How the data were processed

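Poly-A RNA of 17 libraries was sequenced on the BGISEQ-500. The authors mapped reads with Bowtie2. The paper names eXpress for expression, and the submitters' processing notes name RSEM and the mouse build mm10, so the counting program is not settled here. The authors deposited expected counts per gene, which need not be whole (63.9% to 66.6% of the values in a library were), and FPKM values, listed from 0.01. A gene not listed was read as 0. Transcript lengths in the files differ slightly between libraries for genes with several isoforms, which moves FPKM.

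R 4.3.3 ran edgeR 4.0.16 on the rounded expected counts (TMM, quasi-likelihood test, Benjamini-Hochberg over 11272 genes, threshold 0.05). The biological coefficient of variation was 24.7% in the additive fit (10 residual degrees of freedom) and 10% in the by-day fit (7). Without replicates it holds departures from the model. Alternatives were other size factors, DESeq2 1.42.0, limma 3.58.1 on log2(FPKM + 1), other filters and leaving out each library. Outside the flagged results, the fit with no filter gives the p-values of bFGF and time for the 7 genes at 1 FPKM only without bFGF. A floor is 3 counts per library and covers counting error only. The fits were also run on simulated counts with the same bFGF effect on every day and less spread than the additive fit found. That simulation does not cover the spread between cultures or an effect that differs between days. Promoters and positions came from RefSeq and GENCODE M21 tables of GRCm38, the assembly that mm10 names. Python 3.11.15, pandas 2.3.3, numpy 2.4.6 and matplotlib 3.10.9 were used.

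Members, types and lists were chosen with earlier results of these data known. Values in every library are given for all Col4 genes and for the 3 fibrillar and 3 other genes of highest mean FPKM. They are also given for up to 5 genes higher and 5 genes lower with bFGF among those called. Genes named outside this rule were chosen after their values were seen. Some marker genes are not reported here.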

Additional observations from a re-analysis of the deposited data

Results flagged for a closer look

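The bFGF effect differed between days 1, 3, 5 and 7 in 19 of the 22 collagen genes tested (F test within the by-day edgeR fit), and it did so in 76.3% of all genes. Col1a1, Col4a3, Col4a4, Col9a3, Col12a1, Col23a1 and Col27a1 averaged 1 FPKM only without bFGF. Of the 15 other genes 12 differed (80.0%), which was close to the share of all genes. The size is given as the log2 fold change on day 7 minus that on day 1. For the 7 genes named, the values here come from the filtered fit. They passed its filter only through the libraries without bFGF, so their values are a description. Among fibrillar genes the difference was -5.83 for Col1a1, -4.20 for Col27a1, -2.77 for Col11a1, -2.38 for Col5a2, -0.97 for Col3a1, -0.59 for Col5a1 and 0.80 for Col5a3. Among Col4 genes it was -6.74 for Col4a4, -1.36 for Col4a2, -0.77 for Col4a5 and -0.27 for Col4a1. Col4a3 is given no size, since both day 7 libraries with bFGF were at 0. The adjusted p of its F test in the filtered fit (4.997e-05) has the limit of that filter and is not read as a result. Among other types it was -4.02 for Col12a1, -2.72 for Col6a2, -2.59 for Col23a1, -1.82 for Col6a1, -0.82 for Col9a3, 0.21 for Col8a1 and 2.31 for Col18a1. Of these, Col5a3 was called in opposite directions on day 1 and on days 3 to 7 with TMM scaling, and by library totals its day 7 value was negative as well. Each treatment and day has 1 library, so no group held the 4 samples that a test for a sample far from its group needs, and the effect of single libraries is given by leaving out each in turn.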

How the results depend on the processing

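In 74 log2 fold changes of single genes with 614 alternative values, 572 kept their direction and their side of the threshold, 14 lost the call, 22 gained it and 6 turned. The 6 came from library totals without TMM and from limma on log2(FPKM + 1), neither of which corrects for composition: with bFGF on day 7, Col5a3 went from 0.33 to -0.21 in both, and from day 1 to day 7 with bFGF Col4a6 went from 0.33 to -0.10 and -0.092 and Col5a1 from 0.35 to -0.082 and -0.090. With a minimum mean count of 10, and with no filter, more genes were tested, and the number of collagen genes higher with bFGF was 5 and 4 over days 1 to 7 (2 with the filter), 2 and 2 on day 1 (1) and 7 and 7 on day 5 (4). By library totals and by limma, 1 gene was higher with bFGF on day 7 (3 with TMM), and for day 7 against day 1 with bFGF 7 and 5 genes were lower (3 with TMM), with 7 higher by limma (11 with TMM). DESeq2 called 0 genes lower from day 1 to day 7 without bFGF (1 by edgeR). Fits added after the data were seen called more genes for CHIR99021 than the additive fit (0): 7 with a bFGF term for each day, and with an interaction of bFGF and CHIR99021 as well 5 without bFGF and 3 with it. Restricting the genes to those at 1 FPKM in both bFGF states, also added later, left 9 lower with bFGF over days 1 to 7 (15 of the 22). A pseudocount of 0.1 raised the genes at least 2 times higher than day 0 from 4 to 7 in B and in BC. FPKM divided by the TMM factor moved the day 7 ratio of other types, B over BM, from 0.945 to 1.34, and those of fibrillar and Col4 genes in the same proportion. The cause of these moves was not tested where no construction is named.

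Leaving out each library in turn gave 2 to 3 genes higher and 14 to 16 lower with bFGF over days 1 to 7, and 0 for CHIR99021 each time. By day, the range was 0 to 1 higher and 1 to 11 lower on day 1, 3 to 4 and 7 to 12 on day 3, 3 to 5 and 11 to 15 on day 5, and 2 to 3 and 15 to 17 on day 7. From day 1 to day 7 it was 18 to 19 higher and 0 to 1 lower without bFGF, and 8 to 13 higher and 1 to 4 lower with bFGF (1 lower without the B library of day 7). The number lower without bFGF was 0 without the BM library of day 1, the C library of day 1 or the C library of day 7. Between 17 and 20 genes differed between days. Depth limits the genes below 1 FPKM, which rest on few reads. Each fit had day as a term, so bFGF was compared within days. The labels give no replicate number that could pair libraries further.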
